A study of Mus musculus with 4 samples.

Results

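The transcripts of 10 genes of the cellular oxygen-sensing pathway were followed in embryonic mouse kidneys that lack Wnt4. They were the alpha subunits Hif1a and Epas1 of the hypoxia-inducible factors (HIFs), the prolyl hydroxylases Egln1, Egln2 and Egln3, and the hypoxia targets Ndrg1, Adm, Bnip3, P4ha1 and Slc2a1. All probe sets paired with 1 of these genes alone were taken, which gave 24 of the 45101 probe sets on the array. The mutant group was 2 arrays of kidneys from embryos null for Wnt4 (allele Wnt4tm1Amc, stated strain 129), each a pool of 12 kidneys. It was compared with 2 arrays of wild-type kidneys (stated strain CD-1), each a pool of 2 kidneys. All kidneys were whole organs at stage E14.5, Theiler stage 22, of unknown sex, and their RNA went through 1 round of amplification onto Affymetrix Mouse430_2 arrays. The protocol text, the same for all arrays, speaks of CD-1 matings, so the sources disagree on the strain of the mutant. Genotype, stated strain and pool size changed together and cannot be told apart. Wnt4 is a secreted signal without which renal vesicles, the epithelial beginnings of nephrons, do not form, and the study compared the genotypes to find genes of the vesicle and its derivatives.

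In background terms, HIF is a transcription factor made of an oxygen-controlled alpha subunit and a stable partner, Arnt. When oxygen is plentiful, the prolyl hydroxylases mark the alpha subunit, and the Vhl ubiquitin ligase has it destroyed. When oxygen is scarce the alpha subunit persists and switches on genes for glycolysis, vessel growth and matrix formation through a short DNA element with the core ACGTG or GCGTG. Control of the alpha subunits is thus largely at the level of the protein, which these arrays do not measure. Egln3 and Egln1 are themselves HIF targets.

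Wnt4 signals were 406 and 272 on the mutant arrays and 1885 and 1770 on the wild-type arrays at its brighter probe set (log2 difference -2.40, limma adjusted p = 0.000196), and whether its probes fall inside the disrupted sequence was not analysed here. Kidney markers were present in both genotypes, with Six2, of nephron progenitors, at 3235 and 2670 on the mutant arrays and 3760 and 2896 on the wild-type arrays. Correlations of log2 signals over the tested probe sets, which are not independent, were 0.974 to 0.980 within a genotype and 0.943 to 0.947 between genotypes. The transferrin receptor control, whose 3' over 5' signal reflects RNA and amplification quality, had ratios of 5.67 and 6.43 on the mutant arrays against 4.71 and 5.10 on the wild-type arrays. The same ratio lay closer together for the other controls, at 0.753 and 0.744 on the mutant arrays against 0.777 and 0.750 on the wild-type arrays for Gapdh, and 1.56 and 1.54 on the mutant arrays against 1.59 and 1.43 on the wild-type arrays for actin. The part of RNA quality in the differences below was not tested.

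Of the 10 genes, Egln3 and Ndrg1 fell in the mutant, P4ha1 rose at 1 of its 2 probe sets, and the other 7 did not pass the test. The test was limma on log2(signal + 16), where a probe set counts as changed at an adjusted p below 0.05 over the 27022 probe sets tested. Of the 24 probe sets, 23 were tested and 1, for Hif1a, lay under the filter on low signals. Of the 23, 5 were lower and 1 was higher, while 5.39% of all tested probe sets were lower and 5.41% higher (10.8% in either direction). Of the 5 lower probe sets, 4 are for Ndrg1 and count the same transcripts, so they are not 4 independent results. With 1 probe set a gene, 3 of the 10 genes were called, against 12.5% of all 13432 genes tested. The median log2 difference of the 23 probe sets was -0.20, and that of all tested probe sets was -0.01. Taken with 1 probe set a gene, the median was -0.0014 for the 10 genes and 0.00027 for all genes. The members as genes thus had no shared shift. The mutant signals lay apart from the wild-type signals at 16 of the 23, 12 below and 4 above, while the groups did not overlap at 54.1% of all tested probe sets. Without mutant replicate 1, and likewise without mutant replicate 2, 3 of the 23 probe sets passed, against 5.96% and 5.82% of all tested probe sets. With no intensity trend 1 of the 23 passed, against 3.18% of all. In whole kidneys, fewer cells of a type and less RNA per cell cannot be told apart.

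**Figure D1:**
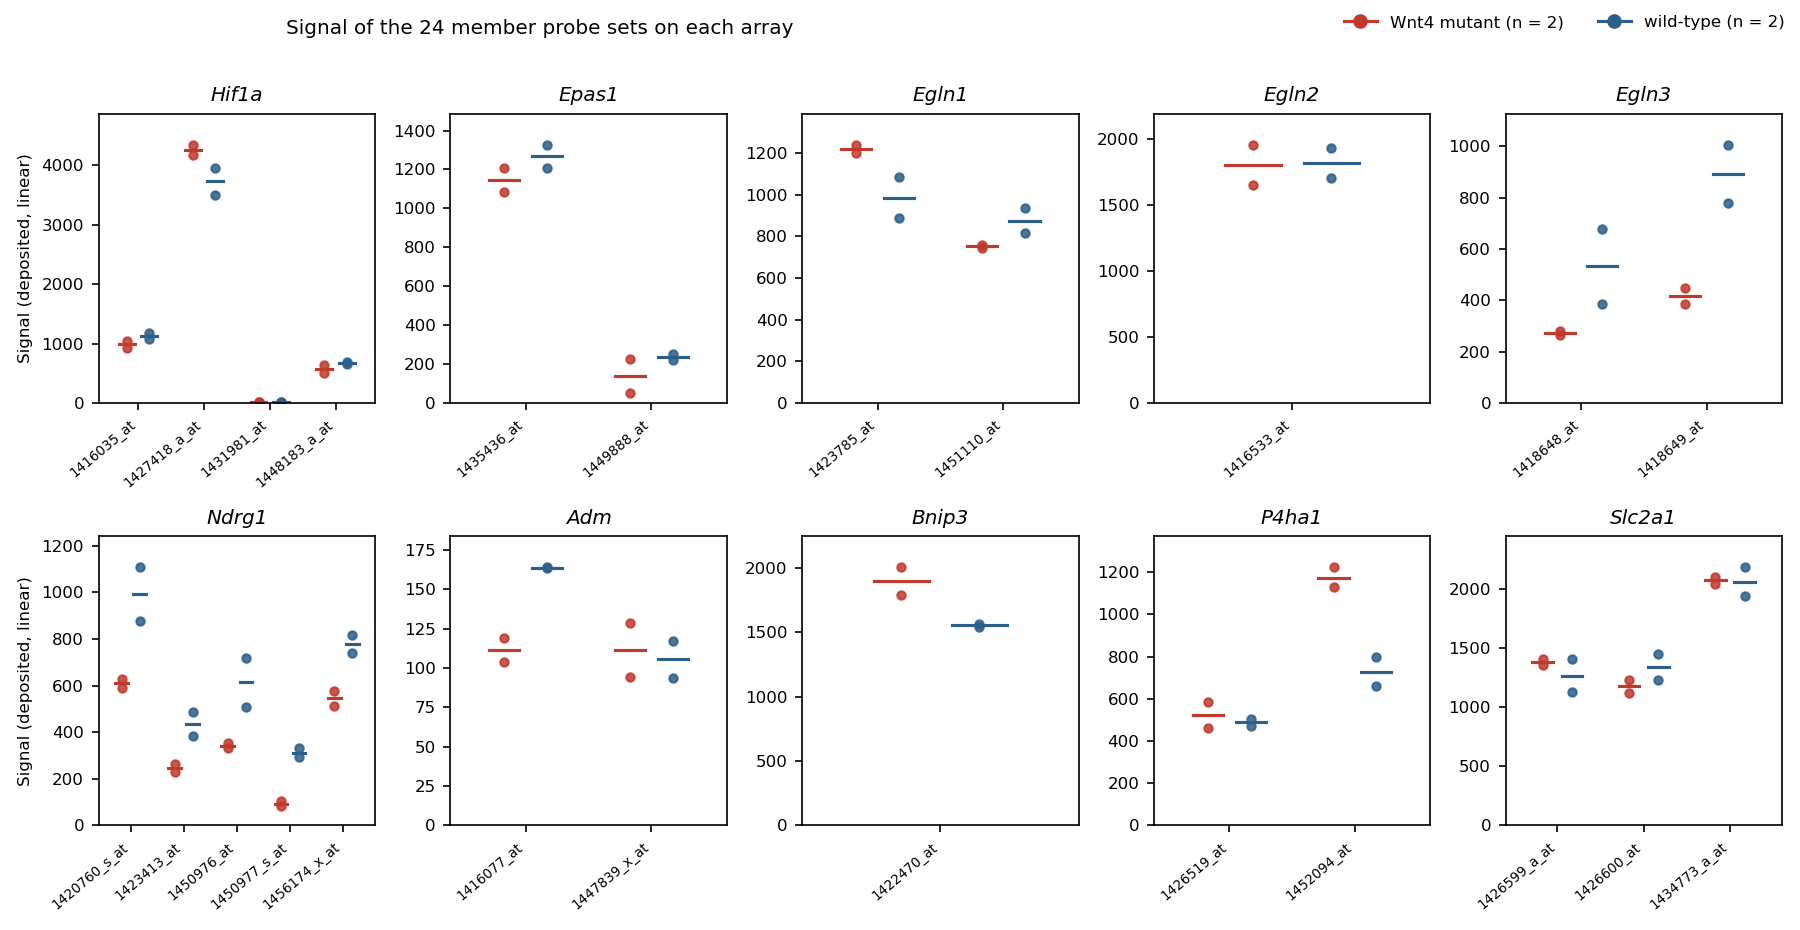
Deposited signal (linear scale, y axis) of each member probe set (x axis) on each array, with 1 panel a gene. Points are arrays, bars are group means, mutant to the left of wild-type (n = 2 each). Both Egln3 and all 5 Ndrg1 probe sets lie lower in the mutant with no overlap, and 1 of the 2 P4ha1 probe sets lies higher.

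No probe set of the HIF alpha subunits Hif1a and Epas1 passed the test. Of Hif3a, a further alpha subunit counted below in the HIF machinery, 1 of 5 tested probe sets was called higher and 0 lower. The brightest Hif3a probe set did not pass (log2 difference -0.08, adjusted p = 0.799). Hif1a, the widely expressed alpha subunit, had signals of 4343 and 4181 in mutant and 3506 and 3948 in wild-type kidneys at its brightest probe set (1427418_a_at). That is a log2 difference of 0.20 (95% interval -0.01 to 0.40, adjusted p = 0.221), with both mutant arrays above both wild-type arrays. Its other tested probe sets went the other way: 1416035_at read 1048 and 921 in mutant against 1076 and 1183 in wild-type kidneys, and 1448183_a_at read 500 and 639 in mutant against 662 and 681 in wild-type kidneys. At both of these the mutant arrays were the lower ones, with log2 differences of -0.20 and -0.24 (adjusted p = 0.347 and 0.377). The fourth, 1431981_at, read 8.84 and 23.7 in mutant and 16.3 and 23.0 in wild-type kidneys, too dim to be tested. The tested probe sets of Hif1a thus differed in sign, with 1.15- to 1.18-fold between genotypes at each, and none passed.

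Epas1 encodes another alpha subunit, known from endothelium and from the cells that make erythropoietin. Its brighter probe set (1435436_at) read 1083 and 1206 in mutant kidneys and 1327 and 1210 in wild-type kidneys, a log2 difference of -0.15 (interval -0.40 to 0.11, adjusted p = 0.470). The dimmer one (1449888_at) was split within the mutant group, with 51.8 and 227 in mutant kidneys against 221 and 252 in wild-type kidneys. Mutant replicate 1 was the low array, and replicate 2 was within the wild-type values. The log2 difference of -0.98 (interval -2.16 to 0.21, adjusted p = 0.285) rested on it: without mutant replicate 1 it was -0.06, and without mutant replicate 2 it was -1.90 (adjusted p = 0.00774). Of 9 endothelial marker genes, 4 were lower and none higher, against 5.82% lower and 6.70% higher of all genes tested. Their summed signals were 7824 and 8113 in mutant and 11197 and 10828 in wild-type kidneys, none was listed at 0, and their part in the Epas1 values was not tested.

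Of the prolyl hydroxylases, Egln3 fell and the other two did not pass. At the brighter Egln3 probe set (1418649_at) signals were 449 and 386 in mutant and 1006 and 779 in wild-type kidneys. Both mutant arrays thus lay well under the lower wild-type array. The means were 418 ± 44.5 in mutant and 892 ± 160 in wild-type kidneys (SD, n = 2 each), a log2 difference of -1.06 ± 0.16 (SE), 2.08-fold lower (adjusted p = 0.00574). Only 3.84% of all tested probe sets had a larger difference in either direction. The call was lost in the fit without an intensity trend (adjusted p = 0.0625). It held when any 1 array was left out, with log2 differences from -1.24 to -0.88.

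The second Egln3 probe set (1418648_at) read 281 and 263 in mutant kidneys, against 678 and 387 in wild-type kidneys. The mutant arrays were again the lower ones, but the wild-type arrays lay far apart. The log2 difference was -0.88 ± 0.25, and it narrowly missed the threshold (adjusted p = 0.0632). It passed after median centring (adjusted p = 0.00738), without wild-type replicate 2 (-1.27, adjusted p = 0.00115) and with the replicate number as a block (adjusted p = 0.0281). Averaged over both probe sets, Egln3 had a log2 difference of -0.97 ± 0.19 (adjusted p = 0.0159).

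Egln1, the main oxygen sensor among the hydroxylases, had 2 probe sets that pointed in opposite directions. At 1423785_at signals were 1201 and 1240 in mutant against 1084 and 887 in wild-type kidneys, a log2 difference of 0.31 (interval 0.02 to 0.60, adjusted p = 0.162). It passed without wild-type replicate 1 (0.45, adjusted p = 0.0257). At 1451110_at they were 746 and 758 in mutant against 935 and 817 in wild-type kidneys (log2 difference -0.21, adjusted p = 0.329). Neither probe set had overlapping groups, yet their signs differ, so no direction can be given for the gene. Egln2, a further hydroxylase, overlapped fully: 1957 and 1654 in mutant and 1710 and 1933 in wild-type kidneys, with an interval of -0.28 to 0.25 for the log2 difference.

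The promoter windows of Egln3, which fell, and of Egln1, which was not called, are shown together because both genes are background HIF targets. The windows are from RefSeq (GRCm38.p6), 250 bases before to 50 after the start site, 5′ to 3′ on the gene's strand, at chr12:54203825-54204124 (minus strand) and chr8:124949205-124949504 (minus strand). Capitals mark ACGTG or GCGTG on either strand (CACGT or CACGC when read on the printed strand), with overlapping matches joined.
Egln3: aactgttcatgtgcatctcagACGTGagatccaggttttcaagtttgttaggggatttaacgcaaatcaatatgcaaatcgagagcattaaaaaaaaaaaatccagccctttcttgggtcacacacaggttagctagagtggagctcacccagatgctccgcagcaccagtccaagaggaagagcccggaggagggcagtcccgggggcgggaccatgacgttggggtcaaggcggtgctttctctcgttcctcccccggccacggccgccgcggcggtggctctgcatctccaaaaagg
Egln1: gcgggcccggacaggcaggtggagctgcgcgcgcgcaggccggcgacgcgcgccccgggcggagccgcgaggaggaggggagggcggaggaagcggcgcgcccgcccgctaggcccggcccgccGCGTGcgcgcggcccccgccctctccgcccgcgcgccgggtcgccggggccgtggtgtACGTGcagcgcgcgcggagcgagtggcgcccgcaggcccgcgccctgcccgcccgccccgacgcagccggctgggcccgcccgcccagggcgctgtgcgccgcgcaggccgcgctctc
The Egln3 window holds 1 match, far from the start site at position -229, and is 54.7% G and C. The Egln1 window holds 2, at positions -126 and -68, and is 86.0% G and C. Of the 32851 promoter windows of this length, 43.8% hold at least 1 match, so a match is a common feature. The letters do not show binding.

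Ndrg1 gave the most uniform result among the targets. It encodes a cytoplasmic protein of stress responses and cell differentiation that is induced by hypoxia. All 5 of its probe sets were lower in the mutant with no overlap between groups, and 4 passed. At the brightest (1420760_s_at) signals were 590 and 629 in mutant and 1107 and 875 in wild-type kidneys, 1.60-fold lower (log2 difference -0.68 ± 0.14, adjusted p = 0.0216). At 1450977_s_at they were 104 and 81.7 in mutant against 294 and 330 in wild-type kidneys, 3.03-fold lower (log2 difference -1.60 ± 0.25, adjusted p = 0.00572). This was the farthest difference of the 23 probe sets, exceeded in size by 1.38% of those tested on the whole array. The added 16 makes this fold smaller than the ratio of the signals. The mutant mean there, 92.8, lay under the lowest mean signal kept, 94.2, so the probe set passed the filter through its wild-type signals. It was not tested with the filter of the lowest 60%, which left it out as too dim.

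The other Ndrg1 probe sets gave smaller differences. At 1450976_at signals were 330 and 353 in mutant against 717 and 510 in wild-type kidneys (log2 difference -0.80, adjusted p = 0.0327). At 1423413_at they were 266 and 227 in mutant against 486 and 384 in wild-type kidneys (log2 difference -0.78, adjusted p = 0.0407). The fifth, 1456174_x_at, read 513 and 578 in mutant against 818 and 739 in wild-type kidneys and just missed the threshold (log2 difference -0.50, adjusted p = 0.0511). Names ending in _s_at or _x_at mark probe sets whose probes may match more than 1 transcript, so the size of the fall at those 3 is less certain. Over all 5, the mean log2 difference was -0.87 ± 0.14 (adjusted p = 0.00627).

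The Ndrg1 calls differed in how they stood up. That of 1450977_s_at passed in all 12 alternative fits in which it was tested, with log2 differences from -1.75 to -1.27. That of 1420760_s_at did not pass in the fits without mutant replicate 1 (adjusted p = 0.085), mutant replicate 2 (0.057) or an intensity trend (0.112). Those of 1450976_at and 1423413_at were lost in these fits (adjusted p from 0.0673 to 0.16), without wild-type replicate 1 (0.0944 and 0.134) and with no filter (0.0692 and 0.0814), and that of 1423413_at also with quantile normalization (0.0514). The direction was downward in every fit at all 5.

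Markers of nephron segments fell in the same arrays as Egln3 and Ndrg1. Of all genes tested, 5.82% were lower and 6.70% higher. Of 9 tested proximal tubule markers, 8 were lower and none higher, with summed signals of 937 and 1078 in mutant against 7100 and 7495 in wild-type kidneys. Several of the called ones had mutant means under the lowest mean signal kept, 94.2, and so passed the filter through their wild-type signals. All 7 tested renal vesicle markers, Wnt4 among them, were lower, with summed signals of 8063 and 7504 in mutant against 17666 and 18211 in wild-type kidneys. All 5 tested podocyte markers were lower, with summed signals of 1323 and 1526 in mutant against 4532 and 4864 in wild-type kidneys. Summed signals take 1 probe set for each marker found on the array, tested or not, and no marker was listed at 0. The part of these cells in the Egln3 and Ndrg1 differences was not tested.

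**Figure D2:**
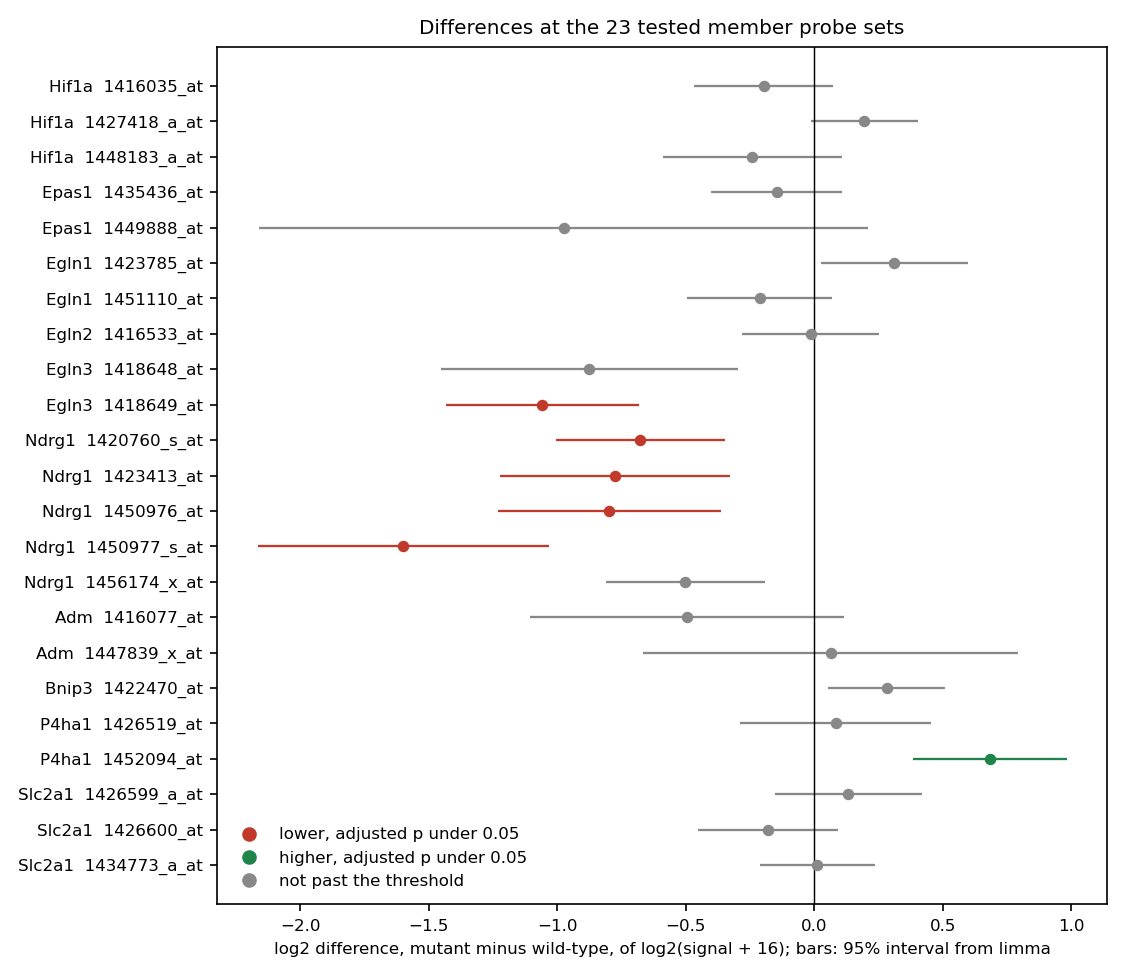
Log2 difference (mutant minus wild-type, x axis) with its 95% interval for each of the 23 tested member probe sets, in order of role from the HIF subunits at the top to the targets below. Egln3 at -1.06 and the 4 called Ndrg1 probe sets, from -1.60 to -0.68, lie on the left, P4ha1 at 0.68 on the right, and the grey points did not pass.

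P4ha1 encodes the catalytic subunit of the collagen prolyl hydroxylase, the enzyme that stabilises the collagen helix. At 1452094_at its signals were 1128 and 1223 in mutant kidneys and 799 and 660 in wild-type kidneys. Both mutant arrays were clearly the higher ones. The means were 1175 ± 67.2 in mutant and 729 ± 98.5 in wild-type kidneys (SD, n = 2 each), 1.60-fold higher in the mutant (log2 difference 0.68 ± 0.13, adjusted p = 0.0143). It no longer passed when mutant replicate 2 was left out (adjusted p = 0.086) or with no intensity trend (0.0986). The other probe set (1426519_at) overlapped, with 462 and 584 in mutant and 507 and 473 in wild-type kidneys (log2 difference 0.08, adjusted p = 0.805). The mean over both did not pass (log2 difference 0.38 ± 0.13, adjusted p = 0.0947), so the rise is that of 1 probe set. Stromal markers rose in the same arrays: 7 of 9 were higher and none lower, against 6.70% and 5.82% of all genes. Their summed signals were 58515 and 58452 in mutant and 37762 and 33860 in wild-type kidneys, and none was listed at 0. Their part in the P4ha1 difference was not tested.

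Bnip3, a mitochondrial protein that promotes the removal of mitochondria, read 1786 and 2003 in mutant and 1544 and 1562 in wild-type kidneys. The mutant arrays were both higher, by a log2 difference of 0.28 (interval 0.05 to 0.51), which did not pass over all probe sets (adjusted p = 0.117). Adm, the vasodilator peptide adrenomedullin, was dim at both probe sets. At 1416077_at it read 119 and 104 in mutant against 164 and 163 in wild-type kidneys (log2 difference -0.50, adjusted p = 0.293). At 1447839_x_at it read 94.3 and 129 in mutant against 93.5 and 117 in wild-type kidneys, with overlapping groups (log2 difference 0.06, adjusted p = 0.930). Both lie near the lowest mean signal kept, 94.2, where intervals are wide: -1.11 to 0.12 for the first and -0.67 to 0.79 for the second.

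Slc2a1, the glucose carrier of most embryonic tissues, showed no difference beyond the spread at any of 3 probe sets. The brightest (1434773_a_at) read 2103 and 2041 in mutant and 2181 and 1936 in wild-type kidneys, with an interval of -0.21 to 0.24 for the log2 difference. At 1426599_a_at signals were 1359 and 1405 in mutant against 1404 and 1129 in wild-type kidneys. At 1426600_at they were 1123 and 1228 in mutant against 1448 and 1226 in wild-type kidneys. Groups overlapped at all 3, and the intervals reached -0.45 at the lowest and 0.42 at the highest, so larger differences than these lie outside them.

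The windows of P4ha1, called higher at 1 probe set, and of Bnip3, not called, are shown for the targets. They lie at chr10:59323046-59323345 (plus strand) and chr7:138909457-138909756 (minus strand), from the same source and with the same capitals.
P4ha1: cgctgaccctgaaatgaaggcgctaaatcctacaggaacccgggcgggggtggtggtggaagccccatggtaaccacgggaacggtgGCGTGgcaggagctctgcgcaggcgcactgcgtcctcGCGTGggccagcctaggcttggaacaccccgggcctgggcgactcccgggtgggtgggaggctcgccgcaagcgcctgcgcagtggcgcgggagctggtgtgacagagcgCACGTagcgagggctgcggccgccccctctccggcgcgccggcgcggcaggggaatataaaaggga
Bnip3: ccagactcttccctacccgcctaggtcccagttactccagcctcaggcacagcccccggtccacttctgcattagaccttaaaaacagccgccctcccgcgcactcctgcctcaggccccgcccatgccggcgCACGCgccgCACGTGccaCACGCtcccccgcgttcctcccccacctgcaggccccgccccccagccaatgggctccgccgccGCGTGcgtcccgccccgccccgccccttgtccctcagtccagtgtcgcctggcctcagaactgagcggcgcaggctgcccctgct
P4ha1 has 3 matches, at positions -163, -126 and -16, and Bnip3 has 4, at -117, -108, -99 and -35. The one at -108 is the palindrome CACGTG, which reads as a match on both strands. All 8 member genes with a window in the table held at least 1 match, whether called lower, called higher or not called. Of all windows of this length, 43.8% held a match. The member windows were 49.3% to 86.0% G and C, against a median of 52.7% for all windows. Members were chosen as genes of this pathway, so the full count is not a result about them. Windows of Epas1 and Ndrg1 were not searched.

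The rest of the pathway moved both ways. Of 62 tested genes in 5 lists of HIF machinery, glycolysis, other hypoxia targets, collagen modification and adrenomedullin receptors, 6 were lower and 5 higher, against 12.5% called among all genes (5.82% lower and 6.70% higher). Medians of the first 4 lists were 0.04, -0.02, -0.04 and 0.16 in that order, and that of all genes tested was 0.00027. The 62 genes did not share a direction. The count of 11 became 5 without mutant replicate 1 (4 lower and 1 higher), 6 without mutant replicate 2 (3 lower and 3 higher) and 2 with no intensity trend (1 lower and 1 higher). With no intensity trend 3.18% of all tested probe sets passed. The split of the 62 genes leaned to higher without wild-type replicate 1, as did that of all tested probe sets. It leaned to lower without wild-type replicate 2, where that of all tested probe sets leaned to higher. With all tested probe sets of a gene averaged, 10 of the 62 genes were lower and 5 higher. The share of all genes in that fit is not given here.

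In the HIF machinery, 1 of 13 tested genes was lower and 1 higher. Cited2, which competes with HIF for its coactivator, read 2848 and 2539 in mutant and 5171 and 4559 in wild-type kidneys. The mutant arrays were far below the wild-type ones, 1.80-fold (log2 difference -0.85 ± 0.10, adjusted p = 0.00163), and both its probe sets passed. The call was lost without an intensity trend (0.0594). Vhl, the part of the ubiquitin ligase that recognises hydroxylated HIF, read 1565 and 1498 in mutant against 1080 and 1112 in wild-type kidneys, 1.39-fold higher (adjusted p = 0.0203). Its other probe set did not pass (log2 difference 0.21). The Vhl call was lost without either mutant array (0.145 and 0.0963), after median centring (0.0783) and with no intensity trend (0.119).

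Of 17 tested glycolysis genes, 3 were lower and 1 higher. Pdk1, a kinase that inhibits pyruvate dehydrogenase, read 1838 and 1588 in mutant and 273 and 343 in wild-type kidneys, 5.36-fold higher (adjusted p = 7.82e-05), and 2 of its 3 tested probe sets passed. The lower genes were Pgam1 (1.40-fold, adjusted p = 0.00676), Ldha (1.41-fold, 0.0132) and Pfkp (2.19-fold, 0.0347), enzymes of the glycolytic route. Ldha, which makes lactate, read 8477 and 8509 in mutant against 12968 and 11058 in wild-type kidneys. So the list held calls in both directions, against 5.82% of all genes lower and 6.70% higher, and its median was -0.02. The 3 lower genes were grouped as enzymes of the route after their values were seen. Uncalled enzymes of the route went both ways. At an unadjusted p below 0.05 in limma, 5 genes of the list were lower and 2 higher, against 13.8% and 14.6% of all genes. The calls of Pgam1, Ldha and Pfkp were lost without an intensity trend (adjusted p = 0.117, 0.146 and 0.126). Ldha was also lost without either mutant array (0.0594 and 0.0629), Pgam1 without mutant replicate 2 (0.0581), and Pfkp without mutant replicate 1 (0.117), without wild-type replicate 2 (0.0652) and with no filter (0.0842).

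Of 21 other hypoxia targets tested, 2 were lower and 2 higher. Ddit4, an inhibitor of growth signalling through mTOR, read 4326 and 3779 in mutant and 1646 and 1066 in wild-type kidneys, 3.03-fold higher (adjusted p = 0.00136). Angptl4, a secreted inhibitor of lipoprotein lipase, was 1.56-fold higher (adjusted p = 0.0314). Ak4, a mitochondrial adenylate kinase, read 372 and 307 in mutant against 754 and 679 in wild-type kidneys, 2.07-fold lower at its brightest probe set (adjusted p = 0.0051), and both tested probe sets passed. Car12, a carbonic anhydrase of epithelial membranes, was 1.82-fold lower (adjusted p = 0.0196). Vegfa, the vessel growth factor, was named after its values were seen: its brightest probe set did not pass (log2 difference -0.04, adjusted p = 0.86), while its other was called lower (-1.03). Without an intensity trend Ddit4 (0.0516), Car12 (0.0513) and Angptl4 (0.141) lost their calls. Car12 did so without mutant replicate 2 (0.089), and Angptl4 without either mutant array (0.169 and 0.0511) and with no filter (0.0648).

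No gene of the collagen modification list passed in limma (8 tested), and at an unadjusted p below 0.05 there were 3, all higher, against 14.6% of all genes higher at that level. Over the 5 lists 14 of the 62 genes were lower and 13 higher at an unadjusted p below 0.05, against 13.8% and 14.6% of all genes (28.4% in either direction). For the receptors of adrenomedullin, Calcrl rose, with 1307 and 1246 in mutant and 698 and 869 in wild-type kidneys (1.63-fold, adjusted p = 0.0131), and both its tested probe sets passed. That call was lost without mutant replicate 1 (0.061) and without an intensity trend (0.0993). Its partners Ramp2 (log2 difference -0.26, adjusted p = 0.178) and Ramp3 (0.51, adjusted p = 0.060) did not pass, and the median of these 3 genes was 0.51.

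**Figure D3:**
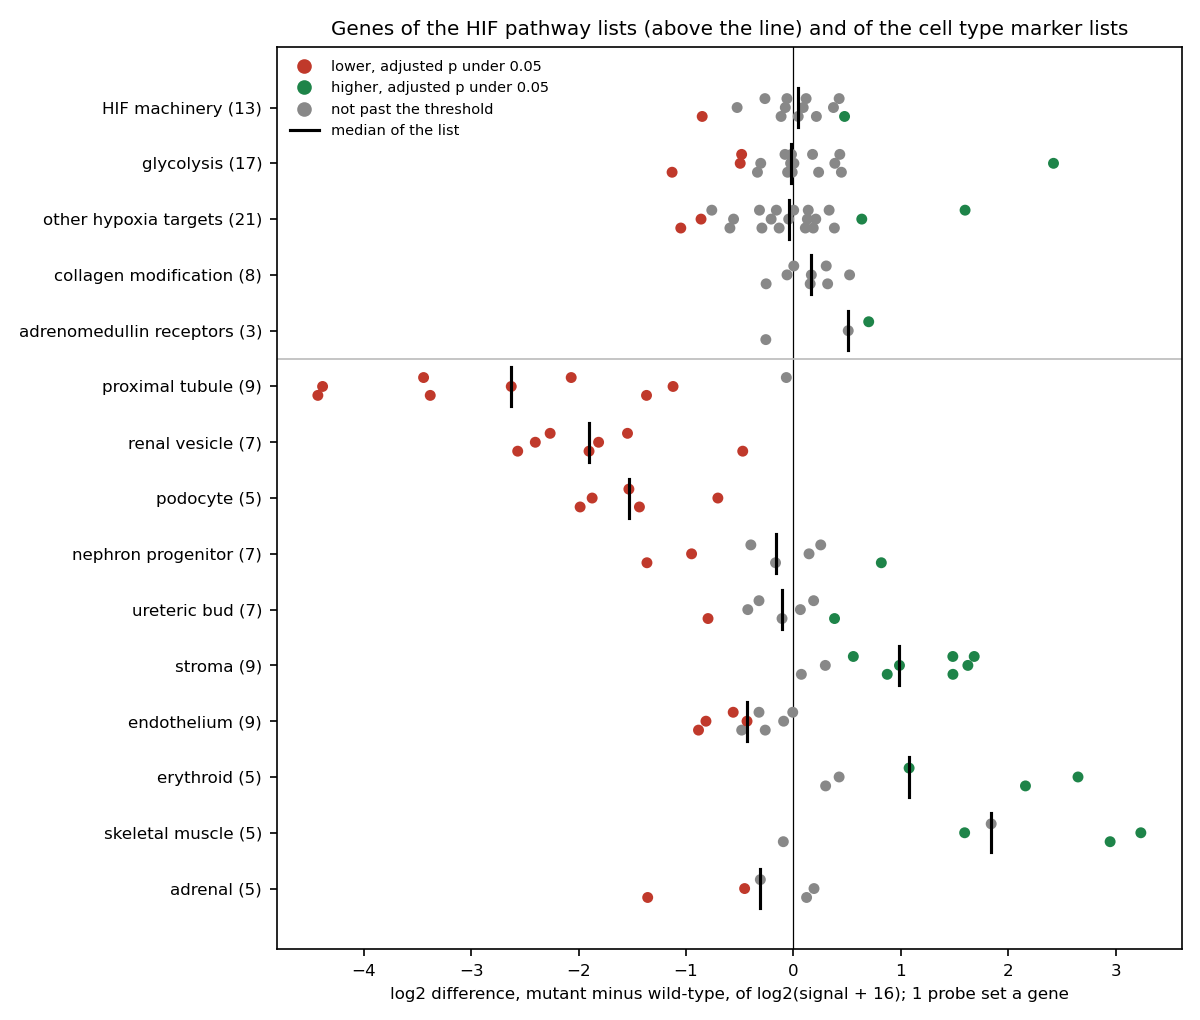
Log2 difference (mutant minus wild-type, x axis) of each tested gene in 5 pathway lists above the grey line and 10 cell type marker lists below it, with the number of tested genes in brackets and the list median as a black bar. The pathway lists hold genes on both sides of 0, while proximal tubule, renal vesicle and podocyte markers lie on the left and stroma markers on the right.

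The remaining marker lists also give the cell context, beside 5.82% lower and 6.70% higher among all genes tested. Some markers called here had a mean in 1 genotype under the lowest mean signal kept, 94.2. They passed the filter through their signals in the other genotype. Of 7 nephron progenitor markers 2 were lower and 1 higher, with summed signals of 11743 and 11088 in mutant against 15129 and 14595 in wild-type kidneys. Of 7 ureteric bud markers 1 was lower and 1 higher, with summed signals of 11168 and 10953 in mutant against 13200 and 12045 in wild-type kidneys. Of 5 adrenal markers 2 were lower, with summed signals of 1762 and 1730 in mutant against 2276 and 2070 in wild-type kidneys. Red cell and muscle markers went the other way: 3 of 5 erythroid markers were higher, with summed signals of 22745 and 23796 in mutant against 10175 and 9972 in wild-type kidneys. These 3 were all embryonic globins, and the other 2 tested erythroid markers, which are not globins, were not called. Of 5 skeletal muscle markers 3 were higher, with summed signals of 2966 and 2907 in mutant against 1434 and 787 in wild-type kidneys. The part of these cells in the members' values was not tested.

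**Figure D4:**
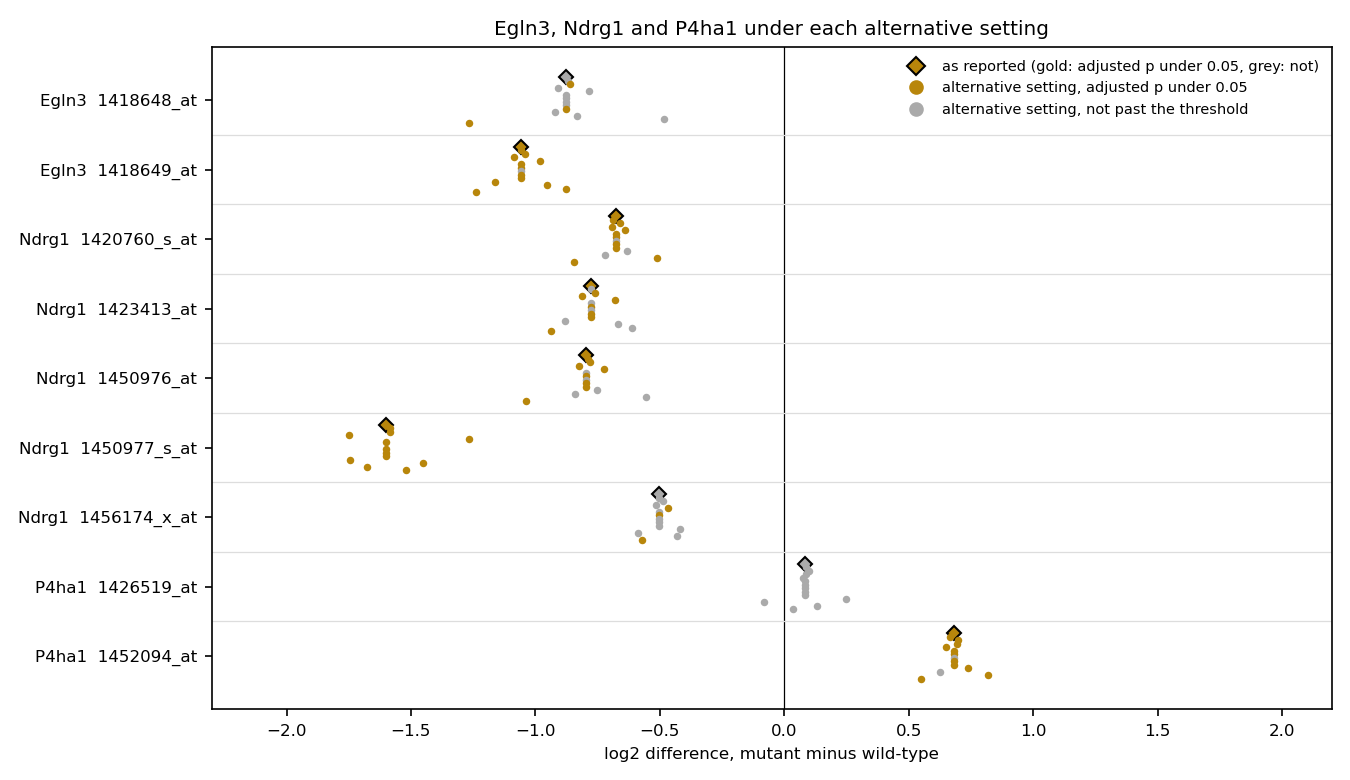
Log2 difference (mutant minus wild-type, x axis) of the Egln3, Ndrg1 and P4ha1 probe sets as reported (diamonds) and under each alternative setting (circles), gold where the adjusted p is under 0.05. All Egln3 and Ndrg1 values lie below 0 and those of 1 P4ha1 probe set lie above it, from 0.55 to 0.82, while the other P4ha1 probe set lies around 0.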

How the data were processed

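Values were the authors' deposited signal intensity per probe set on a linear scale, from 4 arrays. The submitters' processing notes name GCOS alone, without a version. How probes were summarised and scaled is not given in the sources used here. Trimmed means (2% each end left out) came to the same rounded value on all arrays, so they had been scaled before deposit.

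From these, log2(signal + 16) was computed with no further normalization, 64 AFFX controls and the lowest 40% by mean level were left out, and 27022 probe sets were fitted by genotype with limma 3.58.1 in R 4.3.3 (eBayes with an intensity trend, two-sided, Benjamini-Hochberg). Differences are mutant minus wild-type on the log2(signal + 16) scale, which understates changes of dim genes. Genes came from the platform annotation, with symbols updated by identifier through RefSeq (34754 of 34958 single-gene probe sets matched; none of the symbols changed). A list gene was represented by its brightest tested probe set, and 65 of 72 pathway entries and 72 of 75 marker entries were found under a single gene.

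Members, lists and tests were chosen with earlier results of these data known. Besides Wnt4 and the members, the text names up to 4 called genes of each pathway list by smallest p, and every gene of a list with few tested. Hif3a, Vegfa and the marker Six2 fall outside this rule and were named after their values were seen. Nothing states that the pools of 1 genotype are of different litters, and the p-values cover only the spread among these pools. The number of arrays limits the precision: the smallest two-sided exact p with 2 arrays a group is 0.33. Alternatives were quantile normalization, median centring, pseudocounts of 1 and 64, other filters, eBayes without a trend or robust, a replicate block, averaging a gene's probe sets, and leaving out each array.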

Additional observations from a re-analysis of the deposited data

How the results depend on the processing

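Without an intensity trend, calls fell to 858 of all probe sets, against 2920 as reported, to 1 of the members' 23 probe sets (6 as reported), to 2 of the 62 pathway genes (11 as reported) and to 0 of the 10 member genes (3 as reported). In that limma fit 4 member genes had an unadjusted p below 0.05, 3 lower and 1 higher, against 22.4% of all genes (10.3% lower and 12.1% higher). When 1 array was left out, the counts ran from 1572 to 4008 probe sets, from 3 to 8 member probe sets, from 1 to 4 member genes and from 5 to 18 pathway genes. The lowest counts of probe sets and member genes came without mutant replicate 2, with 1611 probe sets and 2 member genes without mutant replicate 1. The lone array of a group is there assumed to vary like the other group, and without a mutant array the spread comes from the wild-type pair alone. With the replicate number as a block, 2913 probe sets, 7 member probe sets, 3 member genes and 11 pathway genes were called. Same-numbered arrays did not deviate together over the tested probe sets (correlation -0.017). With 2 arrays a genotype this cannot settle whether the numbers pair the arrays, and the labels give the numbers no meaning. With no filter 1991 of 45037 probe sets (4.42%) and 4 of 24 member probe sets (16.7%) passed.

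Signs turned only at probe sets that passed in no fit and had differences near 0. With quantile normalization the log2 difference of Slc2a1 1434773_a_at was -0.0018, and with median centring that of Egln2 was 0.0013. When 1 array was left out, Egln2 ran from -0.13 to 0.11, Slc2a1 1434773_a_at from -0.074 to 0.097, Slc2a1 1426599_a_at from -0.023 to 0.29, Adm 1447839_x_at from -0.13 to 0.26 and P4ha1 1426519_at from -0.082 to 0.25. The causes were not tested. Signals near the lowest level kept, as for Adm, leave wide intervals.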
